A study of Mus musculus with 19 samples.

Results

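The lipoprotein lipase system and the lipoprotein receptors of inguinal fat were described across mice with a tumour, with and without FGF21 treatment, and healthy mice. The genes were taken by symbol, with earlier results of these data known: Lpl, Lmf1, Gpihbp1, Angptl4, Angptl8, Vldlr and Lrp1. These are 7 of the 24844 genes of the deposited table. Each symbol stands on 1 row, and 7 of 7 passed the filter on low values.

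Lipoprotein lipase takes fatty acids out of the triglyceride of circulating chylomicrons and very-low-density lipoproteins, and so feeds the fat stores. Adipocytes make the enzyme, the chaperone LMF1 lets it fold, and the endothelial protein GPIHBP1 carries it across the capillary wall and holds it there. ANGPTL4, made by fat cells, inactivates the enzyme, above all in fasting. ANGPTL8, a relative of ANGPTL4, rises with feeding. The receptors VLDLR and LRP1 bind lipoproteins and their remnants, VLDLR alongside the lipase in fat and muscle and LRP1 in many cell types.

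Sequenced were 19 RNA libraries of whole inguinal fat from wild-type C57BL/6JRj mice. In 3 groups of 5 libraries the mice had CHX 207 fibrosarcoma cells injected into the right gastrocnemius. The numbers n count libraries, since the labels do not say that each is a separate mouse. The FGF21 AAV group received FGF21, a hormone of fasting metabolism, through an adeno-associated virus (AAV). The efruxifermin group received efruxifermin, an engineered long-acting form of FGF21, at 2 mg/kg in 6 intraperitoneal injections. The tumour control group received control AAV. The 4 healthy libraries are from mice with no tumour that received control AAV and PBS. Treatment of the tumour groups began 9 days before the tumour cells, and tissue was taken 14 days after them. Mice lived at 29 °C, after 14 days of acclimatization. Whether efruxifermin mice were given control AAV is not in the labels, which give neither the promoter that drives FGF21 nor the age of the mice. By its title the study asks about FGF21 in cancer cachexia, the loss of fat and muscle that tumours cause.

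Depth was 2011067 to 3693864 reads per library, and levels are in RPM, reads scaled to a common library total. In every group all 10 adipocyte markers were detected. Libraries also held differing amounts of RNA of other cells, scored as the mean log2(RPM + 1) of a marker list. B cell markers, which the inguinal lymph node would bring, scored above 3 in 2 of 5 FGF21 AAV, 4 of 5 efruxifermin, 4 of 5 tumour control and 2 of 4 healthy libraries. Tumour control 4 had the highest skeletal muscle score, 12.8, with 101392 RPM of summed muscle markers. Efruxifermin 3 had a muscle score of 10.5 and an adipocyte score of 7.54, against adipocyte scores of 9.79 to 10.5 in the other efruxifermin libraries. Efruxifermin 3 also had the fewest genes detected, 12537, and the highest share of RPM from the gene Gm42418, 17.3%. Gm42418 averaged 9.34% under FGF21 AAV, 8.34% under efruxifermin, 5.97% in tumour controls and 3.34% in healthy libraries. Calls without Gm42418 are given with the alternatives. Tumour control 2 had the lowest adipocyte score, 6.09. Fgf21 had 0 reads in the FGF21 AAV, efruxifermin and healthy libraries and 2 reads in 1 tumour control library, so this RNA gives no check of the virus.

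Promoters of 4 of the 7 genes (Lrp1, Vldlr, Lmf1 and Angptl8) were matched by symbol in RefSeq's table for build GRCm38.p6, which is not the GRCm39 build of the data. Those of the receptors are shown because Lrp1 passed the test under both treatments and Vldlr did not. Without tumour control 4 Vldlr passed under both as well (limma adjusted p = 0.0360 and 0.0226). The 250 bases before the start are given for Lrp1 (chr10:127621149-127621398, minus strand) and for the first of 2 starts of Vldlr (chr19:27216234-27216483, plus strand). Capitals mark a GC box, searched as GGGCGG on both strands and here written as its reverse complement, CCGCCC.
Lrp1: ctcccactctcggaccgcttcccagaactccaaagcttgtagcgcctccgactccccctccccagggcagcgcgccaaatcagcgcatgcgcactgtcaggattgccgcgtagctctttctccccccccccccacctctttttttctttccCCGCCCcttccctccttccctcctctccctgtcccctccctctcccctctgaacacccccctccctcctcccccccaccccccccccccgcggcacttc
Vldlr: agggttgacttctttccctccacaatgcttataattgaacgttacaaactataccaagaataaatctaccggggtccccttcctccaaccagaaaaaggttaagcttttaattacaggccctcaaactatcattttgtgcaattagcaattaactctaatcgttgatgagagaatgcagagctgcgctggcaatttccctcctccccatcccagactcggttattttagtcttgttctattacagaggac
The Lrp1 window holds 1 GC box, and 67.2% of its bases are G or C. The Vldlr window holds 0 GC boxes, and 41.6% of its bases are G or C. The window of the other Vldlr start holds 1 GC box, with 66.4% G or C, close to the Lrp1 window. Over 32851 promoters the median was 52.4%, and a GC box was in 32.742%. Neither window shown holds an E-box (CACGTG, in 6.021% of promoters) or 2 copies of AGGTCA in a row spaced by 1 base (in 0.033%), both strands searched. These matches describe letters, not sites, and a link between them and the changes of the genes was not tested.

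Lpl, the lipase, and Lrp1, the remnant receptor, rose over tumour controls under both FGF21 treatments, by 4.18-fold and 3.21-fold under FGF21 AAV and by 4.37-fold and 3.15-fold under efruxifermin. Angptl4, the inhibitor, was higher in both treated groups but missed the threshold. No gene of the 7 passed between tumour control and healthy fat, although the estimates of all 7 were negative. Under FGF21 AAV 2 of 7 genes were called, against 0.564% of the 17013 genes tested. Under efruxifermin 2 of 7 were called, against 0.764%. The background between tumour control and healthy mice was 0.047%. A call is a limma test on log2(RPM + 1) whose p, adjusted after Benjamini and Hochberg across every gene tested, is under 0.05, and fold changes are on that scale.

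The 7 genes had a median log2 change of 1.44 under FGF21 AAV against tumour control, beside -0.05 over all genes tested. Under efruxifermin it was 1.09, beside -0.14. For tumour control against healthy fat it was -1.65, beside -0.16. The number of genes with a positive estimate was 7 of 7 under FGF21 AAV, 6 of 7 under efruxifermin and 0 of 7 in tumour control against healthy fat. At an unadjusted limma p under 0.05 it was 4 of 7 genes in each of these comparisons. Of the 17013 genes tested, 2715, 2362 and 1415 were under 0.05 in the same order. Both treatment contrasts share the tumour control libraries, and so does the third.

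**Figure D1:**
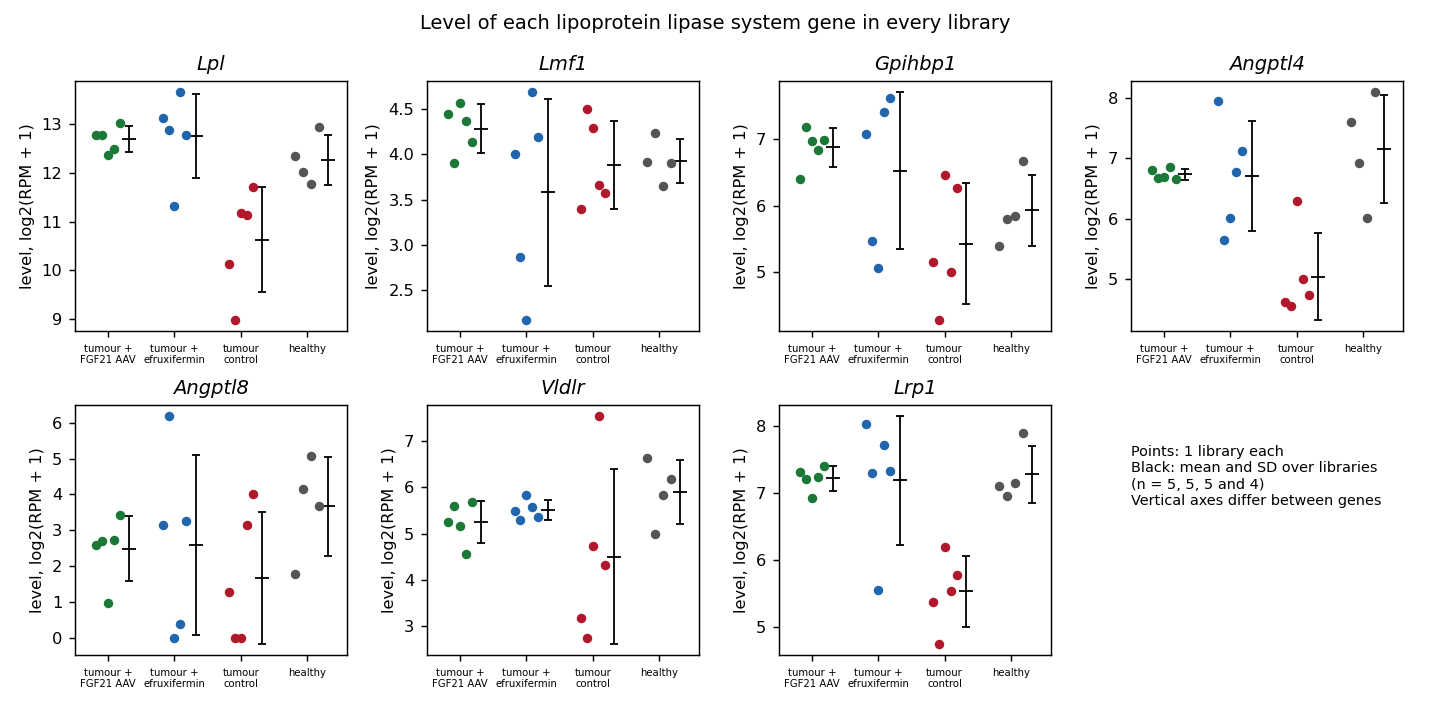
Level of each gene, as log2(RPM + 1), in every library of the FGF21 AAV, efruxifermin, tumour control and healthy groups. Each point is 1 library and the black mark is the mean with its SD (n = 5, 5, 5 and 4). Lpl and Lrp1 are low in all 5 tumour controls, and the single high tumour control point for Vldlr is 186 RPM.

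The lipase gene, Lpl (ENSMUSG00000015568), had 7045, 7042, 5290, 5749 and 8391 RPM in FGF21 AAV libraries 1 to 5. In efruxifermin libraries 1 to 5 it had 8985, 7562, 2560, 12905 and 7034 RPM. In tumour controls 1 to 5 it had 1123, 504, 2326, 2250 and 3342 RPM. In healthy libraries 1 to 4 it had 5238, 4137, 3496 and 7928 RPM. All FGF21 AAV libraries lay above all tumour controls, and 4 of 5 efruxifermin libraries did. The exception was efruxifermin 3, the library with the low adipocyte score and the highest Gm42418 share. All 5 tumour controls lay below the lowest healthy library.

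Lpl averaged 6703 ± 1224 RPM under FGF21 AAV, 7809 ± 3727 under efruxifermin, 1909 ± 1111 in tumour controls (SD, n = 5 each) and 5200 ± 1956 in healthy mice (SD, n = 4). By median the order from the top was efruxifermin, FGF21 AAV, healthy and tumour control, and the upper 3 overlapped. Against tumour control the log2 change was 2.06 ± 0.45 under FGF21 AAV (SE, limma adjusted p = 0.0380) and 2.13 ± 0.45 under efruxifermin (adjusted p = 0.0255). In tumour control against healthy fat it was -1.65 ± 0.48 (adjusted p = 0.217). The FGF21 AAV call was lost by edgeR (1.79, adjusted p = 0.114) and without any 1 of tumour controls 1 and 2 and FGF21 AAV 2, 3, 4 and 5, with log2 changes of 1.65 to 2.14. The efruxifermin call was lost by edgeR (1.93, adjusted p = 0.0717) and without any 1 of tumour controls 1 and 2 and efruxifermin 1, 2 and 4, with 1.72 to 2.09. It was also lost with only the 2 groups compared (adjusted p = 0.166), no filter (0.0721) and quantile normalization (0.0503). The FGF21 AAV call was also lost with the muscle and B cell scores as covariates (1.67, limma adjusted p = 0.6238). No filter (0.0992) and only libraries with a B cell score above 3 (0.168) lost it too. The libraries with a B cell score at or below 3 leave tumour control 4 as the only control. Against it the change was 1.63 under FGF21 AAV and 0.19 in efruxifermin 3. Over all alternatives adjusted p ran from 0.0031 to 0.6238 under FGF21 AAV and from 0.0008 to 0.9314 under efruxifermin.

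Adipocyte markers moved with Lpl. Their sum was 13735 to 41213 RPM under FGF21 AAV, 3724 to 32734 under efruxifermin, 1536 to 11251 in tumour controls and 10907 to 34079 in healthy mice, with 0 of 10 markers at 0 in any group. Their median log2 change against tumour control was 2.02 under FGF21 AAV, with 1 of 10 called, and 1.71 under efruxifermin, with 0 of 10 called. In tumour control against healthy fat it was -1.47, with 0 of 10 called. All 10 markers were higher under each treatment, and 10 of 10 had an unadjusted limma p under 0.05 in both comparisons. In tumour control against healthy fat 8 of 10 had, and 0 of 10 estimates were positive. Adipoq, the adiponectin gene, averaged 1263 ± 684 RPM under FGF21 AAV and 312 ± 185 in tumour controls (SD, n = 5 each), and Plin1, a lipid droplet coat gene, 775 ± 486 and 181 ± 87.3. Across libraries Lpl had r = 0.94 with the adipocyte score and r = 0.911 with the endothelial score (n = 19, a description). Fewer adipocytes and less of a transcript per adipocyte cannot be told apart in whole tissue.

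**Figure D2:**
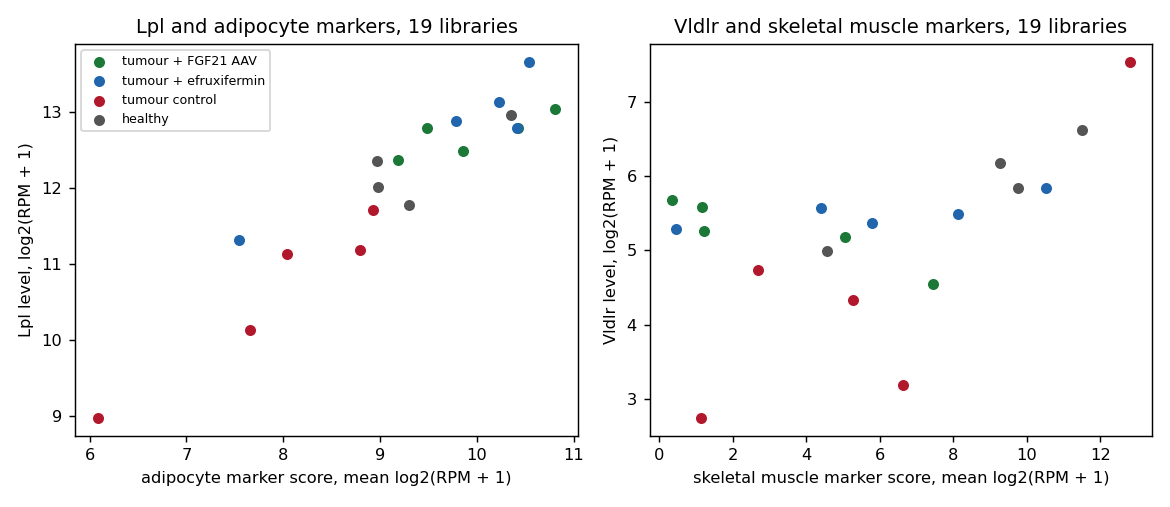
Left, level of Lpl against the adipocyte marker score (mean log2(RPM + 1) of 10 markers). Right, level of Vldlr against the skeletal muscle marker score, with 1 point per library and colours for the 4 groups. Lpl follows the adipocyte score over all groups (r = 0.94, n = 19), and the highest Vldlr point is tumour control 4, which has the highest muscle score, 12.8.

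Lmf1 (ENSMUSG00000002279), the folding chaperone of the lipase, had 20.8, 13.9, 22.8, 19.6 and 16.5 RPM in FGF21 AAV libraries 1 to 5. Efruxifermin libraries 1 to 5 had 15.0, 6.29, 3.51, 24.7 and 17.2 RPM. Tumour controls 1 to 5 had 9.49, 21.6, 18.6, 11.6 and 10.9 RPM, and healthy libraries 1 to 4 had 14.1, 17.8, 11.5 and 13.9 RPM. The 4 groups overlapped, and both the lowest and the highest library were from efruxifermin mice. The log2 change against tumour control was 0.40 ± 0.47 under FGF21 AAV (SE, limma adjusted p = 0.727) and -0.30 ± 0.47 under efruxifermin (adjusted p = 0.811). Tumour control against healthy fat gave -0.04 ± 0.50 (adjusted p = 0.998), with a 95% interval of -1.07 to 0.99, so equal levels are not shown.

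Gpihbp1 (ENSMUSG00000022579), the capillary anchor of the lipase, had 83.4, 144, 125, 114 and 126.1 RPM in FGF21 AAV libraries 1 to 5. Efruxifermin libraries 1 to 5 had 133, 43.3, 32.6, 169 and 195 RPM. Tumour controls 1 to 5 had 34.7, 18.5, 86.7, 31.1 and 75.7 RPM, and healthy libraries 1 to 4 had 41.1, 54.6, 56.5 and 101.1 RPM. FGF21 AAV libraries lay above all tumour controls in 4 of 5 cases, and efruxifermin libraries split into 3 above and 2 within the tumour control range. The log2 change was 1.44 ± 0.45 under FGF21 AAV (SE, limma adjusted p = 0.128) and 1.09 ± 0.45 under efruxifermin (adjusted p = 0.280). Tumour control against healthy fat gave -0.50 ± 0.48 (adjusted p = 0.882). Endothelial markers, a list without Gpihbp1, had median log2 changes of 0.66, 0.76 and -0.62 in these comparisons, with 0 of 14 called in each. Of these markers 5, 9 and 2 had an unadjusted limma p under 0.05. Their sum was 1488 to 1891 RPM under FGF21 AAV, 1365 to 2165 under efruxifermin, 783 to 1597 in tumour controls and 1187 to 1517 in healthy mice, and their part in the Gpihbp1 values was not tested.

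Angptl4 (ENSMUSG00000002289), the fasting inhibitor of the lipase, had 111, 100.9, 102, 115 and 100.4 RPM in FGF21 AAV libraries 1 to 5. Efruxifermin libraries 1 to 5 had 245, 49.3, 63.5, 109 and 139 RPM. Tumour controls 1 to 5 had 23.7, 22.7, 77.2, 31.1 and 25.7 RPM, and healthy libraries 1 to 4 had 193, 120.3, 63.7 and 272 RPM. The FGF21 AAV libraries were closely grouped (106 ± 6.74 RPM, SD, n = 5) and all stood above the tumour controls (36.1 ± 23.2 RPM, SD, n = 5). Of the tumour controls, 4 lay below all healthy libraries and the other one, tumour control 3, lay among them. Angptl4 had r = 0.755 with the stromal progenitor score, 0.725 with the endothelial score and 0.707 with the adipocyte score (n = 19, a description). The part of these cell types in the Angptl4 values was not tested.

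The log2 change of Angptl4 was 1.69 ± 0.41 under FGF21 AAV (SE, limma adjusted p = 0.0552) and 1.66 ± 0.41 under efruxifermin (adjusted p = 0.0557). For tumour control against healthy fat it was -2.11 ± 0.43 (adjusted p = 0.0611), the smallest p of the 7 genes in that comparison. None of these passed, and each passed without tumour control 3, at 2.00, 1.97 and -2.42 (adjusted p = 0.0275, 0.0220 and 0.0287), where 0.777%, 0.777% and 0.101% of all genes were called. Each also passed without tumour control 4, at 1.68, 1.65 and -2.10. The efruxifermin value passed without efruxifermin 2 (1.92) or 3 (1.83), and the one against healthy fat without healthy library 3 (-2.49). DESeq2 called them as well, and edgeR did not. Over all alternatives adjusted p ran from 0.0173 to 0.7192 under FGF21 AAV, from 0.0096 to 0.3306 under efruxifermin and from 0.0104 to 1 in tumour control against healthy fat.

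Angptl8 (ENSMUSG00000047822), the feeding-induced relative of Angptl4, had 5.03, 5.47, 0.99, 5.61 and 9.85 RPM in FGF21 AAV libraries 1 to 5. Efruxifermin libraries 1 to 5 had 7.82, 71.5, 0, 0.32 and 8.60 RPM. Tumour controls 1 to 5 had 1.42, 0, 0, 7.85 and 15.2 RPM, and healthy libraries 1 to 4 had 2.46, 16.7, 32.7 and 11.7 RPM. The groups overlapped throughout, and 1 efruxifermin library lay far above the rest. A count of 0 allows up to 1.05 RPM in efruxifermin 3, 1.13 in tumour control 2 and 1.05 in tumour control 3, taking 3 reads as the limit, for counting error only. The log2 change was 0.80 ± 1.02 under FGF21 AAV (SE, limma adjusted p = 0.749), 0.91 ± 1.02 under efruxifermin (adjusted p = 0.714) and -1.98 ± 1.08 in tumour control against healthy fat (adjusted p = 0.672).

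Vldlr (ENSMUSG00000024924), the very-low-density lipoprotein receptor, had 37.4, 47.2, 35.1, 22.4 and 50.5 RPM in FGF21 AAV libraries 1 to 5. Efruxifermin libraries 1 to 5 had 43.8, 38.0, 56.5, 46.5 and 40.4 RPM. Tumour controls 1 to 5 had 8.07, 5.68, 25.6, 186 and 19.1 RPM, and healthy libraries 1 to 4 had 98.1, 30.8, 56.5 and 71.5 RPM. Tumour control 4 was the highest of all 19 libraries, and the other 4 tumour controls lay below every healthy library. The log2 change was 0.75 ± 0.58 under FGF21 AAV (SE, limma adjusted p = 0.560), 1.01 ± 0.58 under efruxifermin (adjusted p = 0.446) and -1.41 ± 0.62 in tumour control against healthy fat (adjusted p = 0.510).

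Without tumour control 4, the library rich in muscle markers, the log2 change of Vldlr was 1.51 under FGF21 AAV (limma adjusted p = 0.0360), 1.77 under efruxifermin (adjusted p = 0.0226) and -2.17 in tumour control against healthy fat (adjusted p = 0.0303), where 6.02%, 3.77% and 0.379% of all genes were called. With all libraries, edgeR gave the opposite signs, at -0.62, -0.43 and 0.02. Over all alternatives adjusted p ran from 0.0227 to 0.9926, from 0.0226 to 0.8348 and from 0.0165 to 1. Across libraries Vldlr had r = 0.513 with the muscle score, r = -0.675 with the B cell score and r = 0.743 with the brown adipocyte score (n = 19, a description over libraries that share groups). Of the 7 brown adipocyte markers only 4 passed the filter on low values. Ucp1, 1 of the 7, had 0 reads in tumour control and healthy libraries and was above 0 in 1 library of each treated group. That score therefore does not show brown adipocytes. The part of muscle RNA in the Vldlr values was not tested.

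Lrp1 (ENSMUSG00000040249), the large remnant receptor, had 159, 148, 120.3, 149.5 and 169 RPM in FGF21 AAV libraries 1 to 5. Efruxifermin libraries 1 to 5 had 261, 157, 46.3, 209 and 160.3 RPM. Tumour controls 1 to 5 had 40.8, 26.1, 72.6, 45.8 and 54.2 RPM, and healthy libraries 1 to 4 had 137, 123, 141 and 238 RPM. All FGF21 AAV libraries and 4 of 5 efruxifermin libraries lay above all tumour controls, and again efruxifermin 3 was the exception. All tumour controls lay below all healthy libraries.

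The mean of Lrp1 was 149 ± 18.2 RPM under FGF21 AAV, 167 ± 79.5 under efruxifermin, 47.9 ± 17.2 in tumour controls (SD, n = 5 each) and 160 ± 52.9 in healthy mice (SD, n = 4). The log2 change against tumour control was 1.68 ± 0.35 under FGF21 AAV (SE, limma adjusted p = 0.0325) and 1.65 ± 0.35 under efruxifermin (adjusted p = 0.0255). In tumour control against healthy fat it was -1.74 ± 0.37 (adjusted p = 0.0710), which passed by DESeq2 (-1.58) and without tumour control 4 (-1.74, adjusted p = 0.0490). The FGF21 AAV call was lost by edgeR (1.65, adjusted p = 0.0713) and without any 1 of tumour controls 1 and 2 and FGF21 AAV 2, 3, 4 and 5 (1.49 to 1.76). The efruxifermin call was lost without any 1 of tumour controls 1 and 2 and efruxifermin 1, 2 and 4 (1.44 to 1.63), and with only the 2 groups compared (adjusted p = 0.169). Between efruxifermin 3 and tumour control 4, the libraries of these groups with a low B cell score, it was 0.02 (adjusted p = 1). Over all alternatives adjusted p ran from 0.0012 to 0.6238 under FGF21 AAV and from 0.0003 to 1 under efruxifermin. Adipocyte and stromal cells both make Lrp1. Lrp1 had r = 0.923 with the adipocyte score, 0.872 with the endothelial score and 0.78 with the stromal progenitor score (n = 19, a description). Stromal progenitor markers had median log2 changes of 0.86, 0.93 and -1.87 in these comparisons, with 0 of 10 called in each. Of these markers 1, 4 and 9 had an unadjusted limma p under 0.05. The part of these cell types in the Lrp1 values was not tested.

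**Figure D3:**
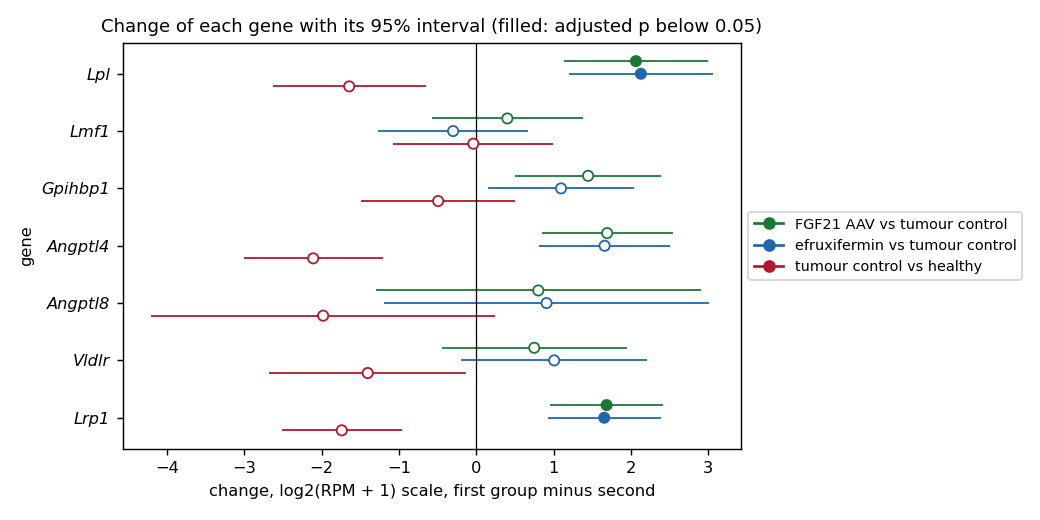
Change of each gene on the log2(RPM + 1) scale for each treated group against tumour controls and for tumour controls against healthy mice, with 95% intervals. Filled points have an adjusted p under 0.05: Lpl and Lrp1 under both treatments. The red points of Lpl (-1.65) and Lrp1 (-1.74) lie opposite to the treated ones, and the red point of Lmf1 (-0.04) lies near 0.

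Counted by groups that did not overlap, 3 of 7 genes (Lpl, Angptl4 and Lrp1) were higher in all FGF21 AAV libraries than in all tumour controls, against 2.71% of genes tested. In efruxifermin mice 0 of 7 genes were, against 1.06%. In tumour controls 2 of 7 genes (Lpl and Lrp1) were lower than in all healthy libraries, against 3.66%. Without the muscle-rich libraries tumour control 4 and efruxifermin 3, a choice made after seeing the data, 5 of 7 genes were called under FGF21 AAV, 4 of 7 under efruxifermin and 4 of 7 in tumour control against healthy fat. Of all 16812 genes tested there, 10.5%, 4.6% and 1.35% were called, so calls over all genes were also more frequent. With the muscle and B cell scores as covariates 0, 2 and 0 of 7 were called, against 0.0118%, 0.517% and 0.0764% of all genes.

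Efruxifermin and FGF21 AAV were set against each other at the doses given, which the labels do not relate to each other. Efruxifermin against FGF21 AAV gave 0 of 7 calls by limma, edgeR and DESeq2, and limma called 0% of all genes. At an unadjusted limma p under 0.05 it was 0 of 7, beside 945 of 17013 genes tested. The log2 difference was 0.06 for Lpl (95% interval -0.87 to 1.00), -0.03 for Lrp1 (-0.76 to 0.70) and -0.03 for Angptl4 (-0.88 to 0.81). It was -0.35 for Gpihbp1 (-1.29 to 0.59), -0.70 for Lmf1 (-1.68 to 0.27), 0.26 for Vldlr (-0.94 to 1.46) and 0.11 for Angptl8 (-1.99 to 2.21). Each interval holds differences of both signs, so equal action is not shown. The SD of Lpl was 3727 RPM under efruxifermin and 1224 RPM under FGF21 AAV, and efruxifermin 3 was the lowest treated library for Lpl, Lrp1, Gpihbp1 and Lmf1.

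Treated tumour-bearing mice were also compared with healthy mice. FGF21 AAV against healthy fat gave 0 of 7 calls by limma, edgeR and DESeq2, and limma called 0.0118% of all genes. At an unadjusted limma p under 0.05 it was 0 of 7, beside 908 of 17013 genes tested. Gpihbp1 had the largest positive estimate, 0.95 ± 0.48 (SE, limma adjusted p = 0.919), with 4 of 5 FGF21 AAV libraries above all healthy ones. Lpl gave 0.42 ± 0.48, Lmf1 0.36 ± 0.50, Lrp1 -0.06 ± 0.37, Angptl4 -0.42 ± 0.43, Vldlr -0.66 ± 0.62 and Angptl8 -1.18 ± 1.08. Efruxifermin against healthy fat gave 0 of 7 calls by the same tools, and limma called 0% of all genes. At an unadjusted limma p under 0.05 the comparison of efruxifermin with healthy fat had 0 of 7, beside 1373 of 17013 genes tested. The estimates of that comparison ran from -1.08 ± 1.08 for Angptl8 to 0.60 ± 0.48 for Gpihbp1, with 0.48 ± 0.48 for Lpl and -0.09 ± 0.37 for Lrp1.

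Ratios within a library compare genes without the scaling of the library. The log2 ratio of Lpl to the mean of the adipocyte markers was 2.74 ± 0.48 under FGF21 AAV, 3.05 ± 0.51 under efruxifermin, 2.73 ± 0.29 in tumour controls (SD, n = 5 each) and 2.87 ± 0.42 in healthy mice (SD, n = 4). It differed by 0.01 between FGF21 AAV and tumour control, by 0.33 between efruxifermin and tumour control and by -0.15 between tumour control and healthy fat (exact two-sided permutation p = 0.968, 0.246 and 0.556). The groups overlapped in each comparison, and an equal ratio is not shown. The log2 ratio of Angptl4 to the adipocyte markers differed by -0.36, -0.14 and -0.61 in the same comparisons. Exact two-sided permutation p was 0.563, 0.849 and 0.333. Here too the groups overlapped, and an equal ratio is not shown. The ratio of Angptl4 to Lpl, inhibitor to enzyme, was -5.95 ± 0.31 under FGF21 AAV, -6.05 ± 0.94 under efruxifermin, -5.58 ± 1.01 in tumour controls and -5.12 ± 0.45 in healthy mice, and the groups overlapped.

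The log2 ratio of Gpihbp1 to Lpl was -5.81 ± 0.40 under FGF21 AAV, -6.23 ± 0.80 under efruxifermin, -5.20 ± 0.60 in tumour controls (SD, n = 5 each) and -6.35 ± 0.44 in healthy mice (SD, n = 4). It was 1.15 higher in tumour control than in healthy fat (exact two-sided permutation p = 0.0317, adjusted over 18 tests p = 0.286), with 4 of 5 tumour controls above all healthy libraries. The ratio of Gpihbp1 to endothelial markers was 0.76 higher under FGF21 AAV than in tumour controls, at 0.65 ± 0.28 and -0.11 ± 0.45 (exact permutation p = 0.0238, adjusted p = 0.286). Of 18 ratio tests 0 passed after adjustment. The smallest p these tests can give is 0.00794 for 5 against 5 libraries and 0.0159 for 5 against 4. A lone difference, however large, could therefore not have passed after adjustment over 18 tests.

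**Figure D4:**
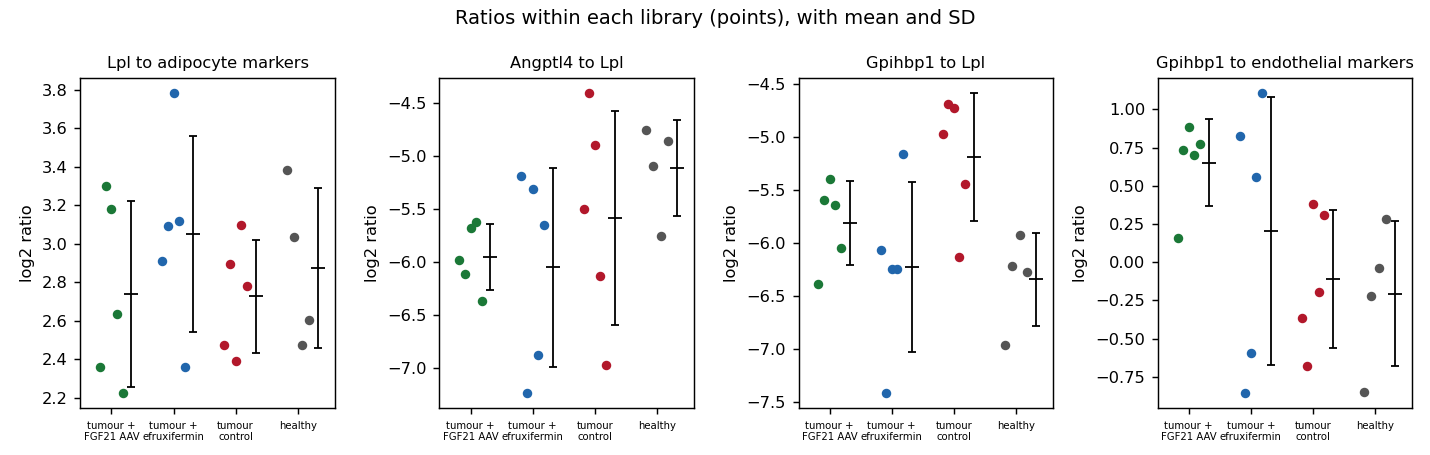
Log2 ratios within each library for Lpl to adipocyte markers, Angptl4 to Lpl, Gpihbp1 to Lpl and Gpihbp1 to endothelial markers, by group; points are libraries and black marks are the mean and SD. Tumour controls have Gpihbp1 to Lpl ratios of -6.13 to -4.69, against -6.96 to -5.93 in healthy libraries, while the ratio of Lpl to adipocyte markers overlaps in all groups.

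Genes of lipoprotein handling, some of the 7 among them, were counted in lists chosen by function. In the list of lipase maturation and transport, which holds Lmf1 and Gpihbp1, 0 of 13 genes were called in any of the 3 main comparisons. The smallest p was that of Sort1, sortilin, a sorting receptor of the secretory path, at 1.48 under FGF21 AAV (limma adjusted p = 0.0590). Sel1l, part of the machinery that matures the lipase in the endoplasmic reticulum, averaged 164 ± 22.3 RPM under FGF21 AAV and 146 ± 27.0 in tumour controls (SD, n = 5 each). Among lipase inhibitors and proprotein convertases 0 of 7 tested genes were called, and the smallest p was that of Angptl4, described above. Among other ANGPTL genes 0 of 2 were called, with Angptl2 at 1.86 under FGF21 AAV (adjusted p = 0.143).

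In the receptor family of Lrp1 and Vldlr with its adaptors, 1 of 19 tested genes rose under each treatment, Lrp1 both times. Among apolipoproteins 1 of 9 tested genes rose under each treatment, and it was Apoa1, the main protein of high-density lipoprotein. Apoa1 rose 13.6-fold under FGF21 AAV (adjusted p = 0.0312) and 8.61-fold under efruxifermin (adjusted p = 0.0457) from low counts, with 281, 231 and 12 reads in total in FGF21 AAV, efruxifermin and tumour control libraries. Apoe averaged 1984 ± 320.3 RPM under FGF21 AAV and 1691 ± 498 in tumour controls. Apoc2, the activator of the lipase, had 0 reads in all but 1 library.

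Of the other lipid receptors and binding proteins, 1 of 9 tested genes rose under FGF21 AAV and 1 of 9 under efruxifermin. Fabp4, the adipocyte fatty acid binding protein and also 1 of the 10 adipocyte markers, rose 5.41-fold under FGF21 AAV (adjusted p = 0.0366). Under efruxifermin Fabp4 was also higher, at an unadjusted limma p under 0.05, but was not called. Cd36, a fatty acid and lipoprotein receptor, rose under efruxifermin (log2 change 2.07), to 726 ± 343 RPM against 187 ± 140 in tumour controls (SD, n = 5 each, adjusted p = 0.0477). Of 14 transcription factors that act on Lpl or Angptl4, 0 were called, with Pparg, the adipocyte master regulator, at 2.42 under FGF21 AAV (adjusted p = 0.102). Of 5 tested vascular and lysosomal lipases and transfer proteins 0 were called, with Pltp, the phospholipid transfer protein, at 1.42 under efruxifermin (adjusted p = 0.0977). No gene of these lists was called in tumour control against healthy fat.

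Genes with the most similar profile were found among 10182 genes of mean level 10 RPM or more over 19 libraries, as a description. Closest to Lpl were Mgll, the monoglyceride lipase (r = 0.972), Ghr, the growth hormone receptor (0.964), and Prkar2b, a protein kinase A subunit (0.962). Closest to Lrp1 were Col4a2 (0.969), a basement membrane collagen, Cav1 (0.946), caveolin, and Sod3 (0.946), extracellular superoxide dismutase. Gpihbp1 was most like Slc1a3 (0.945), a glutamate transporter, Adipor2 (0.928), an adiponectin receptor, and Cidec (0.923), a lipid droplet protein. Vldlr was most like Hspb1 (0.925), a small heat shock protein, Amotl1 (0.922) and Ndrg2 (0.902). Angptl4 was most like Serpinf1 (0.875), Timp2 (0.858) and Fam129b (0.855), and Angptl8 reached only 0.789 with Hoxa9. Lmf1 had r = 0.849 with Txndc17, but 0.444 without the 2 libraries farthest from its median, so that value rests on them. Among the 7 genes Lpl and Lrp1 were most alike (r = 0.926, n = 19), and Lmf1 had r = 0.173 with Lpl.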

How the data were processed

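QuantSeq 3' libraries, which read the end of the last exon, were made by the authors, per the labels' protocols, from 19 samples of inguinal fat. The deposited values are RPM per gene, the authors' read counts scaled to a common total, and the tools the authors named, per the submitters' processing notes, were cutadapt, FastQC, HTSeq and HISAT2, on build GRCm39. Versions, strand setting and treatment of shared reads are not given in the sources used here, so overlapping and antisense genes could not be told apart. Whole reads were recovered in 19 of 19 libraries (100.0% of values up to 1000 reads within 0.05 of a whole number).

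Groups came from the labels. The labels number the libraries but do not state separate animals, so p-values measure the spread between these libraries, which may be technical. Genes with at least 1 RPM in at least 4 libraries (17013) were fitted over all 4 groups by limma 3.58.1 (R 4.3.3, trend) on log2(RPM + 1), which understates changes of low genes. P-values were adjusted by Benjamini-Hochberg over all genes tested. The limma step was tested on simulated data with large changes planted in genes of moderate to high level. That test, whose outcome is not given here, does not cover smaller changes or low genes such as Angptl8 and Lmf1. Ratios of genes were compared by exact two-sided permutation tests (scipy 1.17.1). The 7 genes and all lists were chosen with earlier results of these data known. Named genes are the 7, the called genes of each list or, where there are none, the one with the smallest p, the 3 genes most like each of the 7, and Fgf21, Adipoq and Plin1. Sel1l, Apoe and Apoc2 were named for their role, after their values were seen. Some genes of the lists are not reported here.

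Counts over all genes, in the order tumour control over healthy, then each of FGF21 AAV and efruxifermin over tumour control, efruxifermin over FGF21 AAV, and each treatment over healthy, were 8, 96, 130, 0, 2 and 0 by limma, with 1415, 2715, 2362, 945, 908 and 1373 at an unadjusted p under 0.05. On recovered reads edgeR 4.0.16 called 1, 8, 46, 0, 1 and 0, and DESeq2 1.42.0 called 39, 488, 399, 14, 24 and 16. Alternatives were pseudocounts, filters, scalings, these tools, covariates, a replicate block and subsets of libraries. Of pairs from different groups with the same number, 8 of 27 correlated above 0.1 (median -0.0199). Of pairs with other numbers 24 of 108 did (median -0.0084). The medians gave no sign of pairing by number, which these counts do not exclude. No libraries were duplicates. Promoter letters are from RefSeq, build GRCm38.p6.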

Additional observations from a re-analysis of the deposited data

Results flagged for a closer look

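In 4 of the 28 sets of libraries (7 genes in 4 groups) 1 library stood apart from its group in RPM by Dixon's criterion. Chance alone meets it in about 1 set in 20 only where values are normally distributed, which was not tested for RPM. The rate for these sets is therefore not known. Each of the 4 libraries was the highest of its set. The criterion was not applied on log2(RPM + 1), the scale of the limma tests, where high values stand out less. Angptl8 had 71.5 RPM in efruxifermin 2, against 0 to 8.60 RPM in the other efruxifermin libraries. Vldlr had 186 RPM in tumour control 4, against 5.68 to 25.6 RPM in the other tumour controls, and that library also had the highest skeletal muscle score. Angptl4 had 77.2 RPM in tumour control 3, against 22.7 to 31.1 RPM in the others. Lrp1 had 238 RPM in healthy library 4, against 123 to 141 RPM in the others, and that library also had the highest adipocyte score of the healthy group, 10.3.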

How the results depend on the processing

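Of the alternatives to the 42 log2 changes of the 7 genes, 531 kept direction and call, 24 gained a call, 18 lost one and 55 changed sign, and with 1 library left out the numbers were 342, 13, 22 and 22. The number of the 7 genes called is given for FGF21 AAV and for efruxifermin, both against tumour control, and, where it was not 0, for tumour control against healthy, each with the percentage of all genes called. It was 0 (0.0564%) and 0 (0.229%) with no filter, 3 (1.16%) and 1 (0.829%) with quantile normalization, and 3 (0.924%) and 3 (0.982%) without Gm42418. It was 0 (0.047%) and 1 (0.27%) by edgeR, 3 (2.87%), 3 (2.35%) and 2 (0.229%) by DESeq2, 3 (0.758%) and 0 (0.0269%) with only the 2 groups compared, and 0 (0.0118%) and 2 (0.517%) with the muscle and B cell scores as covariates. Only libraries with a B cell score above 3 gave 0 (0.019%) and 4 (7.4%). Those at or below 3 leave 1 tumour control and 1 efruxifermin library, whose spread is taken from the other groups. They gave 0 and 0, with 1 in efruxifermin against FGF21 AAV (5.29%) and 2 in efruxifermin against healthy (4.68%), and there the log2 changes of Lpl and Lrp1 under efruxifermin were 0.19 and 0.017. The muscle-rich libraries left out together gave 5 (10.5%), 4 (4.6%) and 4 (1.35%). The replicate block, which pairs only by number, gave 2 (0.882%), 2 (1.01%) and 2 (0.235%). Other pseudocounts, the stricter filter and TMM factors left 2 and 2. With 1 library left out the ranges were 0 to 4, 0 to 4 and 0 to 3.

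Signs changed mostly where the estimate lay near 0 or in Vldlr and Angptl8. In tumour control against healthy, Lmf1 was 0.077 with TMM factors, 0.17 with quantile normalization, 0.13 by edgeR, 0.16 by DESeq2, 0.016 without the muscle-rich libraries and -0.19 to 0.083 with 1 left out. Vldlr was 0.022 by edgeR, 0.079 by DESeq2 and 1.14 at low B cell scores, and Angptl8 was 0.42 there. In FGF21 AAV against tumour control Vldlr was -0.62 by edgeR, -0.68 by DESeq2 and -2.27 at low B cell scores, where Angptl8 was -0.19. In efruxifermin against tumour control Vldlr was -0.43 by both tools (-0.426 and -0.434) and -1.70 at low B cell scores, where Angptl8 was -3.15, and Lmf1 ran from -0.58 to 0.051 with 1 left out. In efruxifermin against FGF21 AAV, Angptl4 was 0.13 by edgeR, 0.16 by DESeq2, 0.14 with covariates, 0.13 at high B cell scores, 0.14 without the muscle-rich libraries and -0.34 to 0.23 with 1 left out. Lrp1 was 0.080, 0.11, 0.11, 0.47, 0.38 and -0.24 to 0.38 in the same order. Lpl was -0.053 with quantile normalization, -1.45 at low B cell scores and -0.16 to 0.42 with 1 left out. Gpihbp1 was 0.20 at high B cell scores, 0.014 without the muscle-rich libraries and -0.62 to 0.014 with 1 left out. Angptl8 was -0.32 with a pseudocount of 0.25, -2.95 at low B cell scores and -0.79 to 0.76 with 1 left out. In FGF21 AAV against healthy, Lrp1 was 0.088 with TMM factors, 0.089 with quantile normalization, 0.036 without Gm42418, 0.037 by edgeR, 0.036 by DESeq2, 0.070 at high B cell scores and -0.17 to 0.15 with 1 left out. Angptl4 was 0.28 at high and Angptl8 0.22 at low B cell scores. In efruxifermin against healthy, Lrp1 was 0.012 with TMM factors, 0.030 with quantile normalization, 0.12 by edgeR, 0.15 by DESeq2, 0.54 at high B cell scores, 0.32 without the muscle-rich libraries and -0.30 to 0.32 with 1 left out. Lmf1 was 0.0073 by DESeq2, 0.011 without the muscle-rich libraries and -0.62 to 0.011 with 1 left out. Angptl8 was 0.20 by edgeR and 0.27 by DESeq2. At high B cell scores Angptl4 was 0.41 and Vldlr 0.010, and at low ones Gpihbp1 was -0.96 and Lpl -1.33. The cause was not tested.

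Of the 18 ratio differences, 0 passed under any pseudocount, where a lone difference could not have passed. Lpl to adipocyte markers under FGF21 AAV was -0.0066 with a pseudocount of 0.25 and -0.13 to 0.14 with 1 left out, and in tumour control against healthy -0.28 to 0.023. Angptl8 to Lpl in tumour control against healthy was 0.55 with a pseudocount of 5 and -0.99 to 0.30 with 1 left out. Angptl4 to adipocyte markers under efruxifermin ran from -0.51 to 0.19 and Gpihbp1 to endothelial markers in tumour control against healthy from -0.12 to 0.26. Depth limits Angptl8, with 0 to 216 reads per library, and leaves Lmf1 with few reads.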
